A study of Mus musculus with 8 samples.

Results

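The interferon response genes described here are 34 mouse genes that interferons induce, taken as a fixed list: antiviral effectors, nucleic acid sensors, the transcription factors of the pathway and parts of the antigen processing machinery. They were chosen by name, but with earlier results of these data known. Of the 34, 29 had a probe set that the platform annotation ties to that gene alone, and 27 of these lay high enough above the low end of the arrays to be tested, among 11826 genes tested in all. Ifit2 and Mx2 had a probe set but did not pass the filter on low values, and Isg15, Oas1a, Ifi44, Bst2 and Tap1 were not analysed here. Each gene stands for the brightest of its single-gene probe sets.

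The study asked what the nuclear receptor NR2F2 (COUP-TFII) does in mouse skin tumours. RNA of Epcam-sorted tumour cells, Epcam being an epithelial surface protein, was measured on 8 Affymetrix arrays, 2 in each of 4 groups. In papilloma, a benign tumour, controls labelled NR2F2 wild type were set against tumours overexpressing NR2F2 (gain of function, GOF); in squamous cell carcinoma, controls without Cre were set against K5CreER;NR2F2fl/fl tumours (knockout, KO, titled LOF in the labels). K5CreER is a ligand-dependent recombinase driven from the promoter of keratin 5, a keratin of basal epidermal cells, so deletion takes place in cells with that promoter's activity. The promoter behind the overexpression, the ligand treatment, the age of the mice and whether the carcinoma controls carried floxed alleles are not given in the sources used here, nor is it stated that replicates were different mice. P-values therefore measure only the spread between these arrays, whose small number bounds the precision throughout. Sex chromosome genes, given below, place the 2 arrays of control papilloma, of GOF and of KO in different sexes. The 2 arrays of each of these groups thus did not come from the same mouse.

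Interferons are cytokines of antiviral defence. Type I interferons bind the IFNAR receptor, whose kinases JAK1 and TYK2 phosphorylate STAT proteins; a complex that includes STAT2 and IRF9 binds the interferon-stimulated response element (ISRE). Interferon-gamma, made by T and NK cells, uses the IFNGR receptor, JAK1 and JAK2, and STAT dimers that bind the gamma-activated site (GAS). Keratinocytes respond to both. Many of the induced genes are themselves sensors or transcription factors, IRF7 among them, that feed back on the pathway.

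Both binding elements can be seen in the promoters of the list. RefSeq promoter windows of GRCm38.p6, 250 bases before to 50 after the start of the gene, were found for 25 of the 34 genes. The ISRE core was searched on both strands as GAAA, any 2 bases, GAAA. It was present in 12 of the 25 (48%), against 3.99% of the 27025 genes with a window. The core followed directly by CT was present in 7 of the 25 (28%), against 0.303% of genes. The GAS, searched as TTCNNNGAA, was present in 6 of the 25 (24%), against 9.55% of genes; overlaps between matches were allowed, and in Bst2 a GAS overlaps the ISRE core. A match is a description of letters and not a shown binding site. The stretches below belong to genes whose values are given later; they lie upstream of the start of the gene, are read 5′ to 3′ on its strand, and carry the matches in capitals. TTTC in capitals is GAAA on the opposite strand. The first 6 hold the ISRE core and the last 2 a GAS.
Ifit1: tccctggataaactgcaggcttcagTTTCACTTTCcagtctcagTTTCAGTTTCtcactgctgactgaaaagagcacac
Ifit3: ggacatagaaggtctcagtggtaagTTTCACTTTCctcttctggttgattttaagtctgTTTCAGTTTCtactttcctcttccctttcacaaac
Rsad2: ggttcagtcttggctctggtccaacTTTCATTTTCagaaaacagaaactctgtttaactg
Stat2: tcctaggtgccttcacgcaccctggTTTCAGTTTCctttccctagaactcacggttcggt
Oas3: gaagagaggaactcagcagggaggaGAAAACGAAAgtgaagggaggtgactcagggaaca
Gbp2: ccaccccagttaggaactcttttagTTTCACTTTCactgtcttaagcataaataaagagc
Irf1: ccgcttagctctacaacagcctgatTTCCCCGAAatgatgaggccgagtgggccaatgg
Psmb8: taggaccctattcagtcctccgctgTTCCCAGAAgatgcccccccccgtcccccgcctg
In GRCm38.p6 the Ifit1 stretch is chr19:34640760-34640838 and that of its neighbour Ifit3 chr19:34583348-34583441, both on the plus strand. Rsad2 is at chr12:26456538-26456597 on the minus strand, and Stat2 at chr10:128270251-128270310 on the plus strand. Oas3 lies at chr5:120777700-120777759, minus strand, and Gbp2 at chr3:142620579-142620638, plus strand. The GAS stretches are chr11:53769899-53769957 for Irf1 and chr17:34198073-34198131 for Psmb8, both plus strand. Ifit1 and Ifit3 each hold 2 separate ISRE cores. The window of Oasl1, whose values stand first among the results, holds neither motif.

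**Figure D1:**
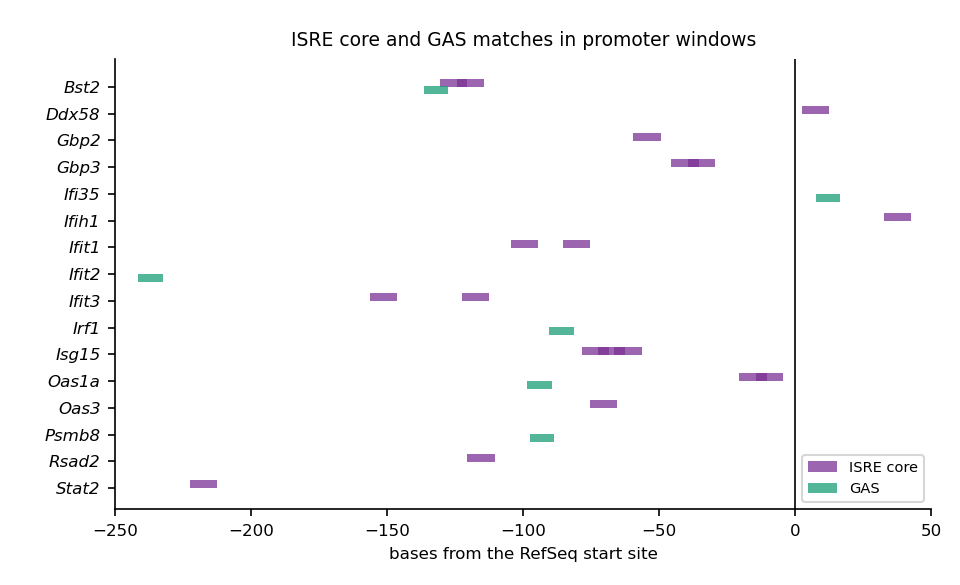
Positions of ISRE core (purple) and GAS (green) matches in the promoter windows of the list, with each gene in a row and the distance from the RefSeq start in bases on the horizontal axis. Of 25 genes with a window, 12 hold an ISRE core and 6 a GAS, and the matches of Ddx58, Ifih1 and Ifi35 lie after the start.

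Values are log2 RMA values, a scale on which 1 unit is a factor of 2.0. Papilloma and carcinoma columns differed in scale, with array medians of 3.12 to 3.16 and 5.08 to 5.15, so they were taken as normalized separately and no level was compared between tumour types. Background was the top value among 44 control probe sets that match no mouse sequence, 3.09 to 3.33 for papilloma and 4.95 to 5.01 for carcinoma. Replicates correlated at 0.980 to 0.991 over all probe sets. Nr2f2 followed the labels, at 2.80 and 2.55 in control papilloma, 11.43 and 11.47 in GOF, 7.93 and 8.14 in control carcinoma, and 4.77 and 5.0 in KO. The epithelial markers Krt5 and Krt14 were at 12.02 or above on all 8 arrays. Epcam was at 8.68 or above on all of them. The 10 listed epithelial markers were all above background on every array. In GOF 1 of the 10 was higher and 1 lower at an adjusted p under 0.05 by limma, against 0.981% and 0.575% of all genes.

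With NR2F2 overexpressed in papilloma, 1 interferon response gene rose, and the list as a whole had no common direction. Oasl1, an OAS-like protein that restrains translation of Irf7 mRNA, rose 2.74-fold. None fell. Genes higher at this threshold made up 0.981% of all genes tested and genes lower 0.575%. The median log2 fold change of the 27 tested members was -0.07, against 0.04 over all genes, and 13 of the 27 were positive. This median moved to -0.50 when control replicate 1 was left out, to 0.57 when control replicate 2 was, and to 0.09 when GOF replicate 1 was. In bulk RNA, fewer cells of a type and less RNA per cell cannot be told apart.

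Oasl1 stood at 3.18 and 3.07 in control papilloma and at 4.46 and 4.70 in GOF, so both GOF arrays were above both controls. Its log2 fold change was 1.45 (SE 0.20, adjusted p = 0.0310 by limma). With the replicate number as a block within each tumour type the call was lost (adjusted p = 0.0946 by limma). The lower control value was below background and the other just above it. The call was lost when any papilloma array was left out: limma's adjusted p became 0.0714 and 0.125 without control replicates 1 and 2, and 0.171 and 0.211 without GOF replicates 1 and 2. It was also lost without either KO array (0.0524), which lends its spread to the fit. The fold change itself stayed between 1.33 and 1.58 in those fits.

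Ifit3, an antiviral protein with tetratricopeptide repeats that acts with IFIT1 on viral RNA, was at 2.70 and 3.90 in the controls and at 5.14 and 6.43 in GOF. The lower control value was below background. The groups did not overlap, although the arrays within each group lay more than 1 unit apart. The log2 fold change was 2.49 (SE 0.58), the largest of the list, and it did not pass the threshold (adjusted p = 0.0923 by limma). Ifit3 has a closely similar neighbour, Ifit3b, and which of the pair the probe set reads was not examined. Ifit3 and Oasl1 were the only 2 of the 27 members at least 1.5-fold higher in GOF in all 4 array pairs, and no member was lower by that rule. Over all genes 4.64% were higher and 2.61% lower. Without control replicate 2 the members higher numbered 9, without GOF replicate 1 they numbered 4, and without control replicate 1 the members lower numbered 8.

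Rsad2 encodes viperin, which blocks viral replication. It was at 4.86 and 8.05 in control papilloma and at 7.87 and 9.25 in GOF. The second control array thus exceeded the first GOF array, and the log2 fold change of 2.11 had an SE of 1.16 (adjusted p = 0.394 by limma). The 3 Rsad2 probe sets gave fold changes from 0.42 to 2.11. Irf7, the factor that amplifies type I interferon production, was at 4.06 and 5.09 against 5.29 and 5.68 in GOF. Both GOF arrays were above both controls, with a log2 fold change of 0.91 (SE 0.52, adjusted p = 0.411 by limma). Oas2, which makes the 2-5A messenger that activates RNase L, was at 3.58 and 4.79 in controls and at 4.42 and 5.05 in GOF. The groups overlapped, and the log2 fold change was 0.55 (adjusted p = 0.519 by limma). Parp14, an ADP-ribosyltransferase, had the lowest fold change of the list, at -0.57 (adjusted p = 0.645 by limma), from 6.90 and 7.96 in controls to 6.62 and 7.11 in GOF. Here too the groups overlapped.

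In carcinoma without Nr2f2, no member passed the threshold of an adjusted p under 0.05 in either direction by limma, and over all genes 0% passed it higher and 0.0169% lower. Before adjustment, limma's p was under 0.05 for 4 of the 27 members, all lower: Oasl1, Irf7, Ifih1 and Ifi27. Of all genes tested, 8.69% were higher and 5.76% lower with an unadjusted p under 0.05. The median log2 fold change of the members was -0.40, against 0.01 over all genes, and 6 of 27 were positive. That median rested on single arrays: it was -1.10 without KO replicate 1, 0.27 without KO replicate 2 and -0.03 without control replicate 2.

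Oasl1 was at 5.73 and 6.20 in control carcinoma and at 5.0 and 4.77 in KO. All 4 array pairs were lower in KO, and both KO values were at or below background. The log2 fold change was -1.08 (SE 0.20, adjusted p = 0.132 by limma), which with the KO arrays at background is at least 1.98-fold lower. Oasl1 was the only member lower by at least 1.5-fold in all 4 pairs, and no member was higher by that rule. The share over all genes was 1.72% lower and 1.67% higher. These counts also rested on single arrays. Without KO replicate 1 there were 14 members lower, without control replicates 1 and 2 there were 6 and 2, and without KO replicate 2 there were 6 members higher: Gbp2, Gbp3, Oas3, Psmb8, Usp18 and Xaf1. Of these, Gbp3 was below background on all 4 carcinoma arrays and Oas3 on both controls. A second probe set of Psmb8 and of Xaf1 differed by only -0.18 and -0.25 between the KO arrays.

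Irf7 was at 6.48 and 7.93 in control carcinoma and at 6.04 and 5.65 in KO. Every KO array was below every control, with a log2 fold change of -1.36 (SE 0.52, adjusted p = 0.305 by limma). Ifih1, the long double-stranded RNA sensor MDA5, was at 6.85 and 5.89 against 5.58 and 4.50, again without overlap, with a log2 fold change of -1.33 (SE 0.55, adjusted p = 0.341 by limma). In papilloma the same gene was at 4.34 and 5.51 in controls and 4.76 and 5.49 in GOF, so the groups overlapped there. Ifi27, a small interferon-induced membrane protein, was at 9.43 and 9.01 against 8.92 and 8.01, a log2 fold change of -0.76 (adjusted p = 0.327 by limma). Its levels in papilloma spanned 8.89 to 9.16 over the 4 arrays.

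Rtp4, a chaperone of opioid receptors induced by type I interferon, was at 6.41 and 7.88 in control carcinoma and at 7.35 and 4.37 in KO. Its log2 fold change of -1.28 had an SE of 1.08 and came from KO replicate 2 alone, without which it was 0.21. A second Rtp4 probe set gave -0.08. Parp14 was at 7.73 and 8.50 in control carcinoma and at 7.92 and 6.65 in KO, a log2 fold change of -0.83 (adjusted p = 0.522 by limma) with overlapping groups. Ifit3 and Oas2 overlapped as well, with 5.91 and 6.92 in controls against 6.19 and 5.60 in KO for Ifit3, and 5.52 and 5.43 against 5.52 and 5.39 for Oas2.

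**Figure D2:**
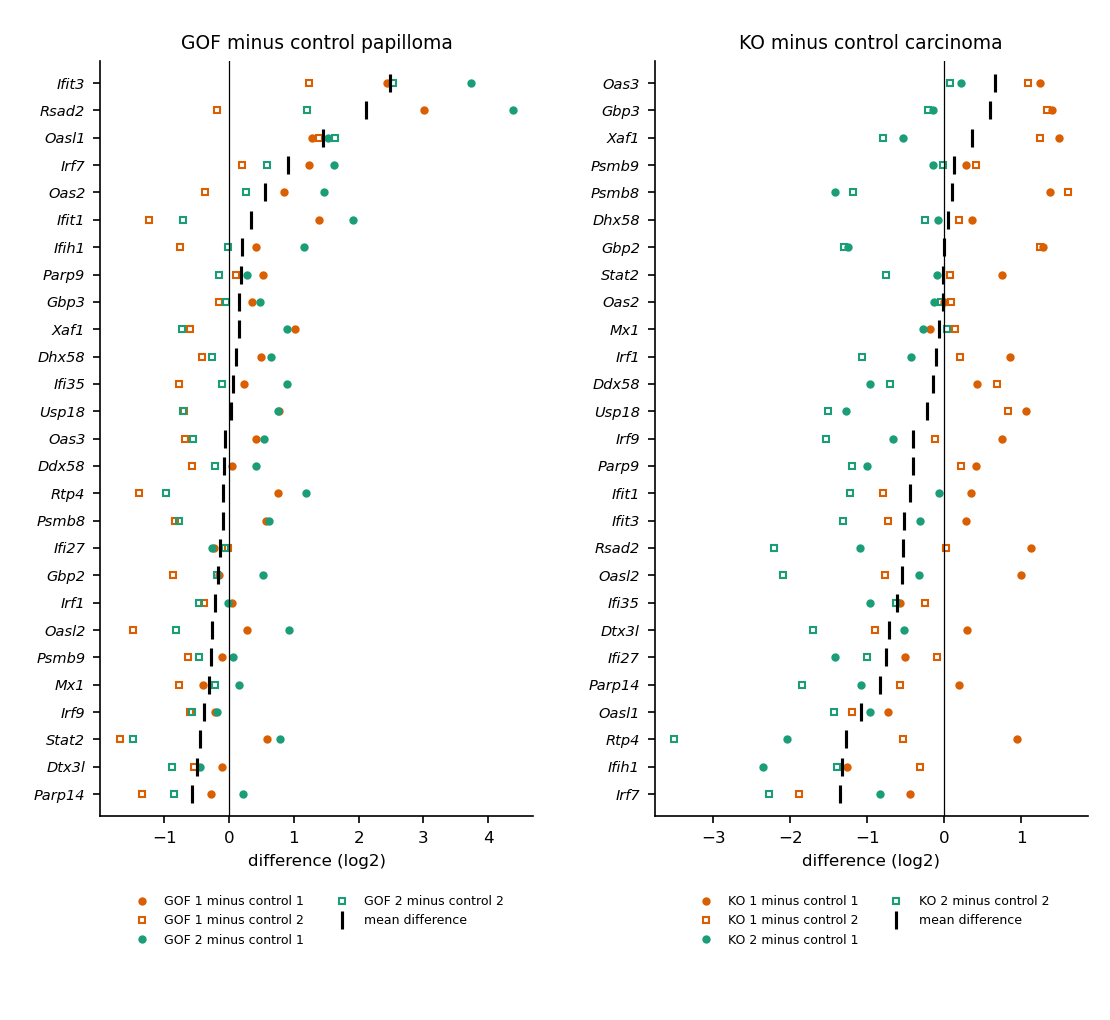
Differences in log2 value between each GOF or KO array and each control array of the same tumour type, for the 27 tested interferon response genes, ordered by the mean difference (black bars). Oasl1 lies between 1.28 and 1.63 in all 4 papilloma pairs and between -1.42 and -0.74 in all 4 carcinoma pairs, while most genes spread across 0.

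The effect of overexpression and that of removal were compared directly for each member, as the GOF effect minus the KO effect. Oasl1 passed this test, with a difference of 2.53 (SE 0.29, adjusted p = 0.0455 by limma). It was 1 of 27, against 0.313% of all genes with a more positive GOF effect and 0.0338% with a more negative one. Oasl1 has 1 probe set, and its difference stayed at 2.53 with other filters and with averaged probe sets. It was also 2.53 with the replicate number as a block within each tumour type. The call itself was lost in these fits. Limma's adjusted p was 0.0519 with the filter on the median of all values, 0.0626 with no filter, 0.0559 with the mean of a gene's probe sets and 0.125 with the block. Leaving out control carcinoma replicate 1 kept it (0.0135), and leaving out any other array ended it, with limma adjusted p from 0.0651 without control carcinoma replicate 2 to 0.230 without GOF replicate 2. Without control papilloma replicates 1 and 2 it was 0.0681 and 0.110, without GOF replicate 1 0.176, and without KO replicates 1 and 2 0.0952 and 0.114. Irf7 had a difference of 2.27 (SE 0.73, adjusted p = 0.237 by limma) and Ifit3 one of 3.01 (SE 0.82, adjusted p = 0.178 by limma), and neither passed.

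For most members the 2 arrays of control papilloma, and those of KO carcinoma, lay further apart than the group means they enter. For 24 of the 27 members the gap between the control papilloma arrays exceeded the difference between the GOF and control means, against 50.6% of all genes. For 22 of 27 the gap between the KO arrays exceeded the difference between the KO and control means, against 48.4% of all genes. The same held for 12 of 27 with the GOF arrays (40.3% of all genes) and 17 of 27 with the control carcinoma arrays (54.2%). The groups did not overlap for 6 of 27 members in papilloma and for 6 of 27 in carcinoma, against 51.4% and 44.5% of all genes.

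In control papilloma, replicate 2 was at least 1.5-fold above replicate 1 for 18 of the 27 members and below it by that much for none, against 7.10% and 8.95% of all genes. The median gap was 1.03, against -0.03 over all genes, and the gaps ran from -0.21 to 3.19. Replicate 2 was the highest of the 4 papilloma arrays for 20 members, and replicate 1 the lowest for 18. In KO carcinoma the gap was the other way round. Replicate 1 was at least 1.5-fold above replicate 2 for 19 of 27 members and below it for none, against 5.83% and 7.50% of all genes. All 27 were lower on replicate 2, which was the lowest of the 4 carcinoma arrays for 25, and the median gap was -1.08 (range -2.98 to -0.10), against 0.02 over all genes.

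The other groups split less. In GOF papilloma replicate 2 was at least 1.5-fold higher for 7 members and replicate 1 for none, against 2.92% and 3.20% of all genes, with a median gap of 0.24. In control carcinoma replicate 2 was that much higher for 11 and replicate 1 for 1, against 9.25% and 7.66% of all genes, with a median gap of 0.22. The mean of the 27 members was 4.77 and 5.85 on the control papilloma arrays, 5.33 and 5.67 in GOF, 6.29 and 6.69 in control carcinoma, and 6.74 and 5.54 in KO. The order of the papilloma means thus placed both GOF arrays between the 2 controls. The carcinoma means placed both controls between the 2 KO arrays.

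**Figure D3:**
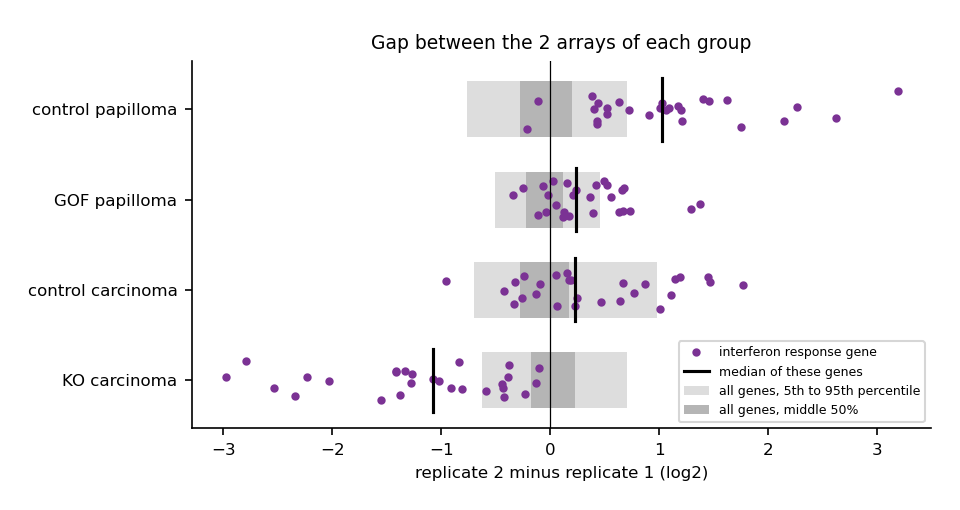
Replicate 2 minus replicate 1 (log2) in each group for the 27 tested interferon response genes (points, with their median as a black line) over the spread of all 11826 genes (grey bars). The medians are 1.03, 0.24, 0.22 and -1.08 from control papilloma down to KO carcinoma, and all 27 points of KO carcinoma lie below 0.

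The largest gaps between replicates in any group belonged to Rsad2, Rtp4, Psmb8, Ifit1, Gbp2 and Usp18. Rsad2 differed by 3.19 between the control papilloma arrays and was at 5.79 and 6.90 in control carcinoma and 6.92 and 4.69 in KO. Its other probe sets showed smaller gaps, down to 0.33 in control papilloma. Rtp4, at 6.92 and 9.07 in control papilloma and 7.68 and 8.10 in GOF, had the widest gap of KO carcinoma, where replicate 2 lay 2.98 lower and below background. The second Rtp4 probe set differed by only -0.20 between the KO arrays.

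Psmb8 is an immunoproteasome subunit that cuts proteins into peptides for MHC class I. In papilloma it was at 6.62 and 8.02 in controls and 7.19 and 7.24 in GOF. In carcinoma it was at 9.87 and 7.08 in KO and 8.50 and 8.26 in controls. The 2 KO arrays enclosed the controls, 6.91-fold apart, although a second Psmb8 probe set differed by only -0.18 between them. Gbp2, a GTPase that attacks pathogen vacuoles, was at 8.05 and 5.51 in KO, 6.76 and 6.81 in control carcinoma, 3.69 and 4.41 in control papilloma, and 3.54 and 4.22 in GOF. Its KO arrays were 5.79-fold apart, and the other Gbp2 probe set showed a gap of -3.03.

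Usp18, the protease that removes ISG15 and dampens IFNAR signalling, was at 6.11 and 3.77 in KO, 5.05 and 5.28 in control carcinoma, 3.26 and 4.72 in control papilloma, and 4.03 and 4.01 in GOF. Its KO replicate 2 was below background. Ifit1, which binds viral RNA with an unusual cap, was at 4.0 and 6.62 in control papilloma, 5.39 and 5.91 in GOF, 3.75 and 4.90 in control carcinoma, and 4.10 and 3.68 in KO. Its control papilloma arrays were 6.16-fold apart, and all 4 carcinoma arrays were below background.

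**Figure D4:**
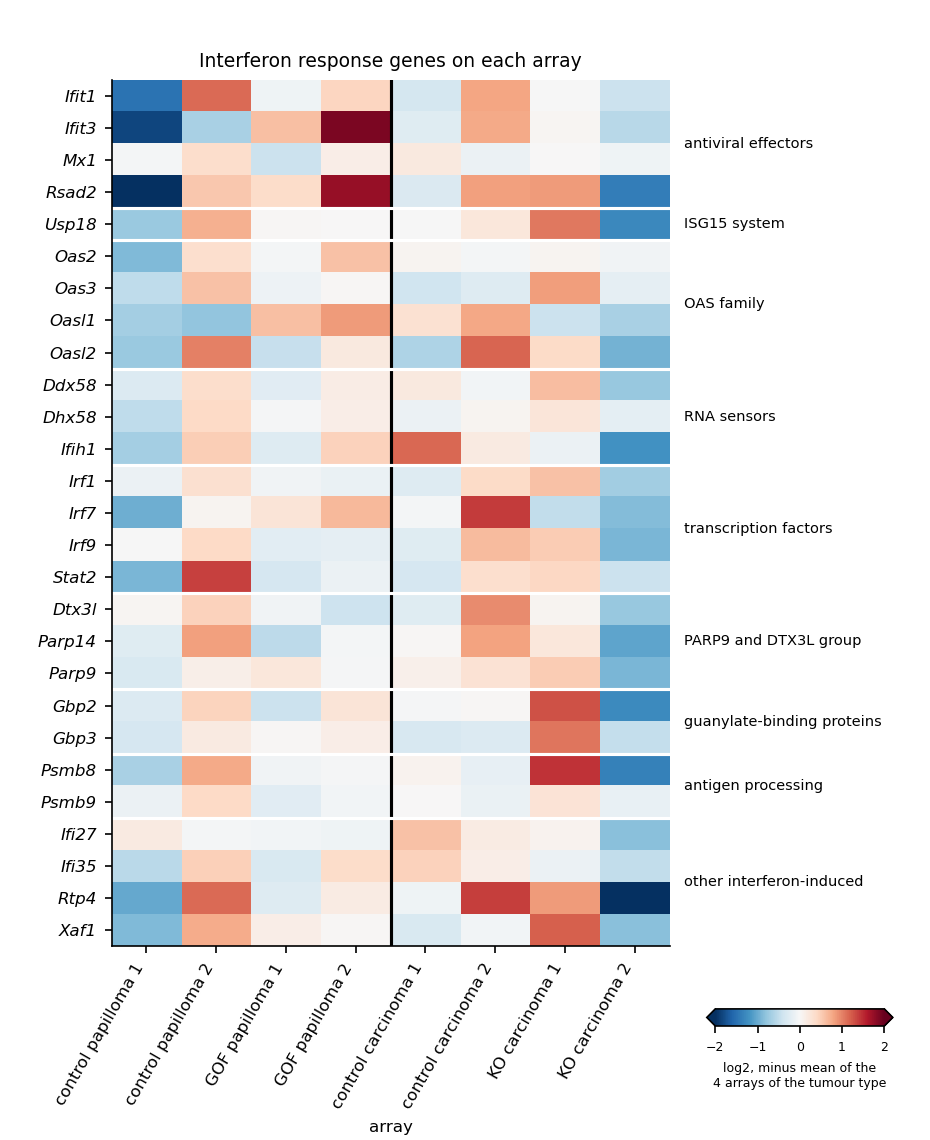
Log2 value of each of the 27 tested interferon response genes (rows, grouped by role) on each of the 8 arrays (columns), minus the mean of the 4 arrays of its tumour type; red is higher and blue lower, with colours ending at -2.0 and 2.0. Control papilloma replicate 1 and KO carcinoma replicate 2 are blue for most genes, and Oasl1 stands apart in GOF.

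Among the other antiviral effectors, Mx1, a dynamin-like GTPase against influenza, was at 2.67 to 3.45 in papilloma and below background on all 4 carcinoma arrays, at 4.42 to 4.74. Ifit2 and Mx2, below the filter, spanned 2.75 to 3.26 and 2.84 to 3.42 in papilloma. In the OAS family, Oas3 was at 2.96 and 4.05 in control papilloma and 3.37 and 3.50 in GOF, and Oasl2 at 5.74 and 7.49 against 6.01 and 6.67. In carcinoma Oas3 reached 5.59 on KO replicate 1, against 4.35 to 4.57 on the other arrays. Oasl2 was at 5.03 and 6.80 in controls and 6.03 and 4.70 in KO.

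Among the transcription factors, Stat2 was at 3.23 and 5.50 in control papilloma and 3.81 and 4.02 in GOF, and a second Stat2 probe set showed a control gap of 0.29 in place of 2.26. In carcinoma it was at 6.47 and 7.14 in controls and at 7.22 and 6.38 in KO. Irf9, its DNA-binding partner, was at 7.18 and 7.58 against 6.97 and 7.0 in papilloma, and at 7.17 and 8.04 against 7.92 and 6.50 in carcinoma. Irf1, a factor induced by interferon-gamma, ran from 6.72 to 7.18 in papilloma and from 8.16 (KO replicate 2) to 9.44 (KO replicate 1) in carcinoma.

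The RNA sensors Ddx58 (RIG-I) and Dhx58 (LGP2) had log2 fold changes of -0.08 and 0.11 in GOF. In KO the value was -0.14 for Ddx58, while the Dhx58 probe set was below background on all 4 carcinoma arrays. Of the group that joins the ADP-ribosyltransferase PARP9 to its ubiquitin ligase partner DTX3L, Parp9 was at 0.19 and -0.40 and Dtx3l at -0.49 and -0.72 for GOF and KO. Gbp3 differed by 0.16 in GOF and was below background on all 4 carcinoma arrays, with its highest value there, 4.75, on KO replicate 1. Psmb9, the other immunoproteasome subunit of the list, differed by -0.28 and 0.13, Ifi35 by 0.06 and -0.61, and Xaf1, a partner of an apoptosis inhibitor, by 0.15 and 0.36. None of these 8 genes passed limma's threshold, with adjusted p of 0.505 or above.

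The rest of the pathway was looked at with lists of genes that are not members. None of their genes passed limma's threshold in either comparison. Of 18 interferon genes listed, 10 had a probe set and 2 were tested, Ifna1 and Ifna5. On each array only 1 to 3 of the 10 were above background. The mean of the 2 tested was 3.21 and 3.38 in control papilloma and 3.36 and 3.15 in GOF. In carcinoma it was above background, at 5.91 and 5.72 in controls and 5.93 and 5.86 in KO. Ifnb1 was at 2.73 to 2.93 in papilloma and 4.19 to 4.42 in carcinoma, below background on all 8 arrays, and Ifng at 3.76 to 3.89 in carcinoma. In papilloma Ifng reached 3.34 on GOF replicate 2, just above background, and 2.90 to 3.04 on the others.

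Of 15 tested receptor, JAK-STAT and feedback genes, none was at least 1.5-fold apart between the KO arrays. Over all genes 7.50% were that much higher on KO replicate 2 and 5.83% on replicate 1. Between the control papilloma arrays 1 was apart each way, against 7.10% and 8.95% of all genes. Counts this small among 15 genes cannot be told from those shares. Ifnar1 and Ifnar2, the type I receptor chains, differed by 0.19 and -0.23 in GOF and -0.30 and -0.36 in KO. The gamma receptor chains Ifngr1 and Ifngr2 differed by 0.71 and 0.01 in GOF and by -0.66 and -0.38 in KO. The kinases Jak1, Jak2 and Tyk2 had log2 fold changes of -0.06, -0.12 and 0.20 in GOF and -0.26, -0.67 and -0.15 in KO. Stat3, which carries signals of the interleukin-6 family, was lower in all 4 GOF pairs, at 9.02 and 9.02 against 9.76 and 9.73 (log2 fold change -0.72, adjusted p = 0.140 by limma). It was the only 1 of the 15 at least 1.5-fold lower in all GOF pairs, against 2.61% of all genes. In carcinoma Stat3 was at 9.84 and 10.40 in controls and 9.81 and 9.56 in KO.

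Among 15 tested genes of nucleic acid sensing, Irf8 was higher in all 4 GOF pairs, at 3.92 and 4.08 against 2.94 and 3.06 (log2 fold change 1.00, SE 0.20, adjusted p = 0.0644 by limma). Both control values were below background, so the difference is at least 1.83-fold. Irf8 is a transcription factor of myeloid cells. It was the only 1 of the 15 at least 1.5-fold higher in all GOF pairs, against 4.64% of all genes. Tmem173, the adaptor STING, was lower in all 4 KO pairs, at 4.43 and 4.74 against 5.48 and 5.43 (log2 fold change -0.87, SE 0.17, adjusted p = 0.134 by limma). Both KO values were below background, so the difference is at least 1.39-fold lower. Tmem173 was the only 1 of the 15 at least 1.5-fold lower in all KO pairs, against 1.72% of all genes.

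Further type I targets, 32 tested, had median log2 fold changes of 0.10 in GOF and -0.27 in KO. In all 4 GOF pairs 3 were at least 1.5-fold higher and 1 lower, against 4.64% and 2.61% of all genes. The DNA-binding PYHIN family gene Ifi203 was at 5.01 and 5.99 against 3.53 and 4.17 in papilloma and at 6.89 and 6.10 against 7.76 and 7.87 in carcinoma. It differed by 1.65 (SE 0.40, adjusted p = 0.0993 by limma) and -1.32 (SE 0.40, adjusted p = 0.234 by limma). Its relative Ifi205 and Slfn5 were the others higher in GOF, by at least 2.30-fold and 1.69-fold over control arrays below background, and the lectin gene Lgals9 (-1.71) was lower. In KO, Trim21, a cytosolic antibody receptor, was lower in all 4 pairs together with Ifi203, at 5.94 and 5.93 against 6.64 and 7.38. Of all genes, 1.72% were at least 1.5-fold lower in all KO pairs.

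The interferon-gamma targets showed the widest gap between the KO arrays. Of 15 tested, 10 were at least 1.5-fold higher on replicate 1 and none on replicate 2, with a median gap of -2.16. Over all genes the shares were 5.83% and 7.50%. Cxcl9, a chemokine that draws T cells and is induced by gamma, was at 8.36 and 3.84 in KO, against 5.58 and 4.99 in control carcinoma. The GTPases Iigp1 (7.26 and 3.57), Tgtp1 (6.93 and 3.46) and Igtp (7.73 and 4.80) had the same order, and on replicate 2 all 4 of these genes were below background. In control papilloma 7 of the 15 were that much higher on replicate 2 and 1 on replicate 1, against 7.10% and 8.95% of all genes. In the GOF comparison Iigp1, Tgtp1 and Serping1 were higher in all 4 pairs and Cxcl9 and Cxcl10 lower, so the list did not move one way. Over all genes 4.64% were at least 1.5-fold higher and 2.61% lower in all pairs. Cxcl9 was at 4.58 and 4.77 in GOF against 6.08 and 7.67 in controls (log2 fold change -2.20, SE 1.30, adjusted p = 0.430 by limma).

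MHC class I presentation genes, 13 tested, shared the KO gap, with a median of -0.91. On replicate 1, 8 were at least 1.5-fold higher and on replicate 2 none, against 5.83% and 7.50% of all genes. H2-Q4 was at 9.80 and 8.01 and the transporter partner Tapbp at 10.85 and 9.73. The 7 constitutive proteasome subunits had no gap of 1.5-fold in any group, against 2.92% to 9.25% of all genes in each direction. Between the KO arrays they differed by -0.42 to -0.12, the immunoproteasome subunit Psmb9 by -0.43 and Psmb8 by -2.79. Over all probe sets of these 2 genes the KO gap ran from -1.39 to 0.04 for Psmb9 and from -2.79 to -0.18 for Psmb8.

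**Figure D5:**
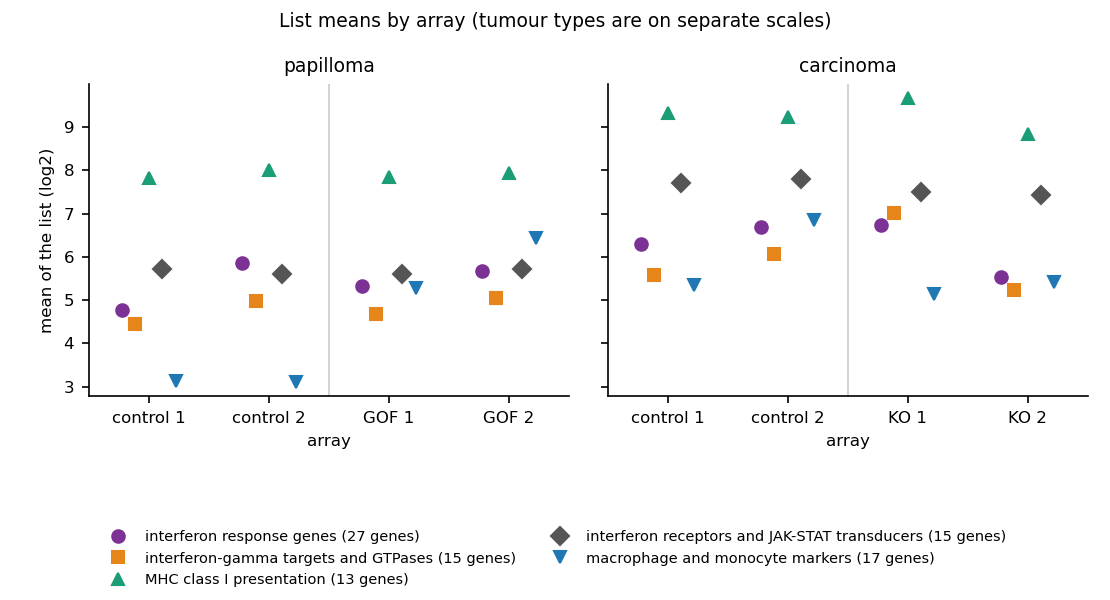
Mean log2 value on each array of the interferon response genes, the interferon-gamma targets, MHC class I presentation genes, receptors with JAK-STAT genes, and macrophage markers; papilloma and carcinoma are on separate scales. The interferon response genes stand at 6.74 and 5.54 and the gamma targets at 7.01 and 5.24 on the 2 KO arrays, while macrophage markers stand at 5.14 and 5.41.

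Macrophage, dendritic cell and endothelial marker lists had higher means in GOF than in control papilloma. On the 2 KO arrays the marker lists had similar means, though single markers differed. The mean of 17 macrophage and monocyte markers was 3.14 and 3.11 in control papilloma and 5.27 and 6.44 in GOF. Of the 20 with a probe set, 6 and 9 were above background on the control arrays and 17 on each GOF array, and 4 of 17 rose by limma's test, among them Lyz2, at least 33.6-fold higher over control arrays below background (adjusted p = 0.00987 by limma). In carcinoma that mean was 5.34 and 6.86 in controls and 5.14 and 5.41 in KO. On control carcinoma replicate 2, 16 of these 17 markers were at least 1.5-fold higher than on replicate 1. So were 8 of 13 endothelial and 9 of 11 fibroblast markers, against 9.25% of all genes. In the other direction there were 0, 0 and 1, against 7.66%. Of 10 epithelial markers, 4 were that much lower on replicate 2 and 0 higher, with means of 11.40 and 10.85. Endothelial markers were at 4.04 and 3.90 in control papilloma and 5.48 and 5.62 in GOF, and 5 of 13 rose. The dendritic cell list was at 4.65 and 4.93 in controls and 6.32 and 6.98 in GOF, and 3 of its 7 tested genes rose, all of them MHC class II genes (H2-Aa, H2-Ab1 and H2-Eb1). Neutrophil and mast cell markers were at 6.31 and 5.63 against 6.86 and 7.17, and 1 of 5 rose, the mast cell protease Cma1. Of all genes tested, 0.981% rose by limma's test. The part of all these cells in the values of Oasl1, Ifit3 and Irf8, and in the KO differences of the members, was not tested.

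Of 17 T and NK cell markers with a probe set, 4 were tested, and their mean was 6.28 on KO replicate 1 and 6.47 on KO replicate 2. Cd3e, Cd3g and Nkg7 were below background on all 8 arrays. The dendritic cell list averaged 6.22 and 6.03 on the KO arrays, neutrophil and mast cell markers 6.61 and 6.28, and fibroblast markers 6.36 and 6.66. Single fibroblast markers differed more, with gaps from -2.45 to 1.54. Of 11 tested, 4 were at least 1.5-fold higher on KO replicate 2 and 1 on replicate 1, against 7.50% and 5.83% of all genes. Macrophage markers above background numbered 8 and 13 on KO replicates 1 and 2. Between the control papilloma arrays, macrophage markers were level, whereas fibroblast markers were 7.86 on replicate 1 and 6.69 on replicate 2, opposite in order to the interferon response genes. The part of fibroblasts was not tested.

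Genes of the sex chromosomes also differed within groups. Eif2s3y, on the Y chromosome, was at 2.56 and 6.66 in control papilloma, 6.85 and 2.55 in GOF, 3.79 and 7.45 in control carcinoma, and 8.62 and 4.0 in KO. Xist, which silences an X chromosome, was at 8.52 and 3.11, 3.39 and 7.72, 8.78 and 6.51, and 4.25 and 8.67 in the same order. In control papilloma and KO carcinoma the array with the higher mean of interferon response genes was the one with Eif2s3y. In GOF it was the one with Xist. In control carcinoma it was replicate 2, where Eif2s3y was at 7.45 and Xist, at 6.51, was also above background. The part of sex in the gaps was not tested.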

How the data were processed

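The authors deposited 1 table of log2 values for 8 Affymetrix mouse PM strip arrays, normalized with RMA per the labels, which name RMA and affy without versions. RNA was extracted with the RNeasy micro kit, per the labels' protocols. The members and lists were chosen with earlier results of these data known. Of 45141 probe sets, 104 were controls, and by the platform annotation 28898 named 1 gene, 551 several and 15588 none. Of the single-gene probe sets, 28689 matched the RefSeq gene table of GRCm38.p6. A probe set was kept when it exceeded the median of a tumour type (3.14 or 5.107) on at least 2 of its 4 arrays. The test was limma's (version 3.58.1, R 4.3.3, 4 residual and 2.94 prior degrees of freedom), with Benjamini-Hochberg adjustment over 11826 genes and a threshold of 0.05. The code was tested on simulated data. With 2 arrays against 2, an exact permutation p cannot go below 0.333, so none was used. All-array values were given for members past the threshold, apart in all 4 array pairs, or among the 6 largest differences per comparison or between replicates. A fold against a group with both arrays at background is a lower bound, against the higher of background and the gene's own value. Alternatives covered filters, probe set choice, normalization, variance prior, replicate block, the fit on 4 arrays and leaving out each array. Cell lists were those of marker genes. RefSeq windows lack 9 of the 34 members.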

Additional observations from a re-analysis of the deposited data

Results flagged for a closer look

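Oasl1 was higher in GOF and lower in KO in all 4 array pairs of each comparison, and the test of the difference between the effects gave 2.53 (SE 0.29, adjusted p = 0.0455 by limma). That call was lost with either other filter, with averaged probe sets, with the replicate block and without any 1 array other than control carcinoma replicate 1. Oasl1 has 1 probe set, so its difference was 2.53 under the filters and the averaging, and only the adjusted p moved. Irf7 was also higher in all 4 GOF pairs and lower in all 4 KO pairs, with a difference of 2.27 (SE 0.73), which did not pass (adjusted p = 0.237 by limma).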

How the results depend on the processing

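With the replicate number as a block within each tumour type, no member was called in GOF (0 in place of 1; Oasl1 1.45, adjusted p = 0.0946 by limma) or for the GOF effect against the KO effect (0; Oasl1 0.125). Over all genes, same-numbered arrays deviated from their group means with a correlation of -0.00 in papilloma and 0.12 in carcinoma. Over the 27 members it was 0.48 in papilloma, with 21 of the same sign, and -0.10 in carcinoma, with 8. With 2 arrays a group, these values cannot decide whether the numbers pair the samples. The GOF against KO call of Oasl1 was also lost (0 members) with the filter on the median of all values (0.0519), with no filter (0.0626) and with the mean of a gene's probe sets (0.0559). With 2-fold in place of 1.5-fold, 0 members were lower in all KO pairs. The core followed by CT was found in 7 members in place of 12. Oas2 in KO turned from -0.02 to 0.01 with quantile normalization and with centred medians. Leaving out 1 array, members called ranged from 0 to 1 in GOF and in GOF against KO. Members higher in all GOF pairs ranged from 2 to 9 and lower from 0 to 8, those higher in all KO pairs from 0 to 6 and lower from 1 to 14, and the GOF median from -0.50 to 0.57. Signs turned for Rsad2 in KO (-1.65 to 0.58), Oas2 in GOF (-0.05 to 1.15) and KO (-0.09 to 0.05), Ifih1 in GOF (-0.38 to 0.79) and Rtp4 in GOF (-1.18 to 0.97) and KO (-2.77 to 0.21). Over all genes, 184 were called in GOF, 115 with no filter, 39 with the block and 2 to 308 without 1 array. In KO 2 were called, with 24 under the trended robust prior and 0 with the block, with 4 carcinoma arrays alone and with averaged probe sets, and 0 to 107 without 1 array. For GOF against KO there were 41, with 11 under either other filter, 4 with the block, 5 with averaged probe sets, 70 with the trended robust prior and 1 to 286 without 1 array. The cause of these changes was not tested. The difference between the effects has no value on 4 arrays of 1 tumour type. On the carcinoma arrays several members lay at or below background, which limits the size of a fall that can be read there.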
